A study of Mus musculus with 4 samples.

Results

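Resident macrophages of the bone marrow are represented here by 10 genes, chosen by name as genes of mature tissue macrophages and read by their NCBI gene number from a table of 27179 mouse genes. They are the complement genes C1qa, C1qb and C1qc, the receptors Mrc1, Cd163 and Axl, the adhesion molecule Vcam1, the heme oxygenase Hmox1, the iron exporter Slc40a1 and the transcription factor Spic. The question was whether cells sorted as Mac-1+/c-Kit+ leukemia-initiating cells (LICs) carried RNA of these genes, and whether the level differed by genotype. Carry-over of macrophages into the sort and differentiation of the sorted cells cannot be told apart in bulk libraries. The choice used no value of these libraries in its rule, but it was made with earlier results of these data known.

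The LICs came from a murine acute myeloid leukemia, in which Lin- fetal liver cells received the fusion oncogene MLL-AF9 by retrovirus together with YFP and were transplanted into lethally irradiated C57BL/6 mice. RNA-sequencing was done on 4 libraries of bone marrow from C57BL/6 mice aged 6 weeks, 2 labelled WT and 2 labelled CD274-null (genotype CD274-/-), and both groups carry MLL-AF9. The sample labels describe LSCs sorted by FACS, whereas the study's methods speak of RNA from tissue. The sources used here do not give the round of transplantation or say whether the libraries came from separate mice, so each p-value measures only the spread between these libraries. Values are FPKM, the fragments on a gene scaled by its length and by the mapped fragments of the library, which can be compared between genes of different length.

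The labels were checked on genes of the sorted population. Itgam, which encodes the Mac-1 alpha chain, had an FPKM of at most 174 and a mean of 145 over the 4 libraries, and Kit had 6.59 to 19.5. Granule protease genes of myeloid progenitors were high, with a mean FPKM of 3670 for Elane and 3020 for Prtn3. The reads recovered from the FPKM values summed to between 8220474 and 10931848 per library, and between 16344 and 17038 genes were above 0. The deleted gene Cd274 had an FPKM of 2.80 and 0.945 in the libraries labelled WT and of 1.43 and 2.29 in those labelled CD274-null, a difference of 0.09 ± 0.51 on the log2 scale (± standard error, limma adjusted p = 0.955). Cd274 thus did not separate the libraries by label, although a value per gene does not show which exons its reads came from, and every direction given below rests on them.

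Resident macrophages of the marrow clear dying cells and expelled erythroblast nuclei, recycle the iron of hemoglobin and sit in the niche of hematopoietic stem cells. They take up hemoglobin through CD163, open the heme ring with heme oxygenase 1 and release the iron through ferroportin, the product of Slc40a1. SPIC is the transcription factor known for the iron-recycling macrophages of spleen and marrow, and it is related to PU.1, the master regulator of myeloid cells that Spi1 encodes. C1q, built of 3 chains, marks dying cells for uptake and is made mainly by macrophages.

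Over the 4 libraries the 10 genes fell into 3 levels. Vcam1 stood highest with a mean FPKM of 80.7, and its lowest library lay above the highest of every other member. Hmox1, with a mean of 32.0, and Slc40a1, with a mean of 17.0, followed, and their ranges overlapped. The other 7 genes were low, with means of 2.43 for C1qb, 1.24 for C1qc, 1.21 for C1qa, 0.776 for Cd163, 0.355 for Axl, 0.135 for Mrc1 and 0.126 for Spic. The highest C1qb value, 3.91, lay below the lowest Slc40a1 value, 11.7, whereas each of the 7 overlapped its neighbours in this order. Vcam1, Hmox1 and Slc40a1 together made up 95.2% and 96.9% of the members' summed FPKM in WT against 92.1% and 96.6% in CD274-null. Mrc1, Axl and Spic were below an FPKM of 1 in every library.

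**Figure D1:**
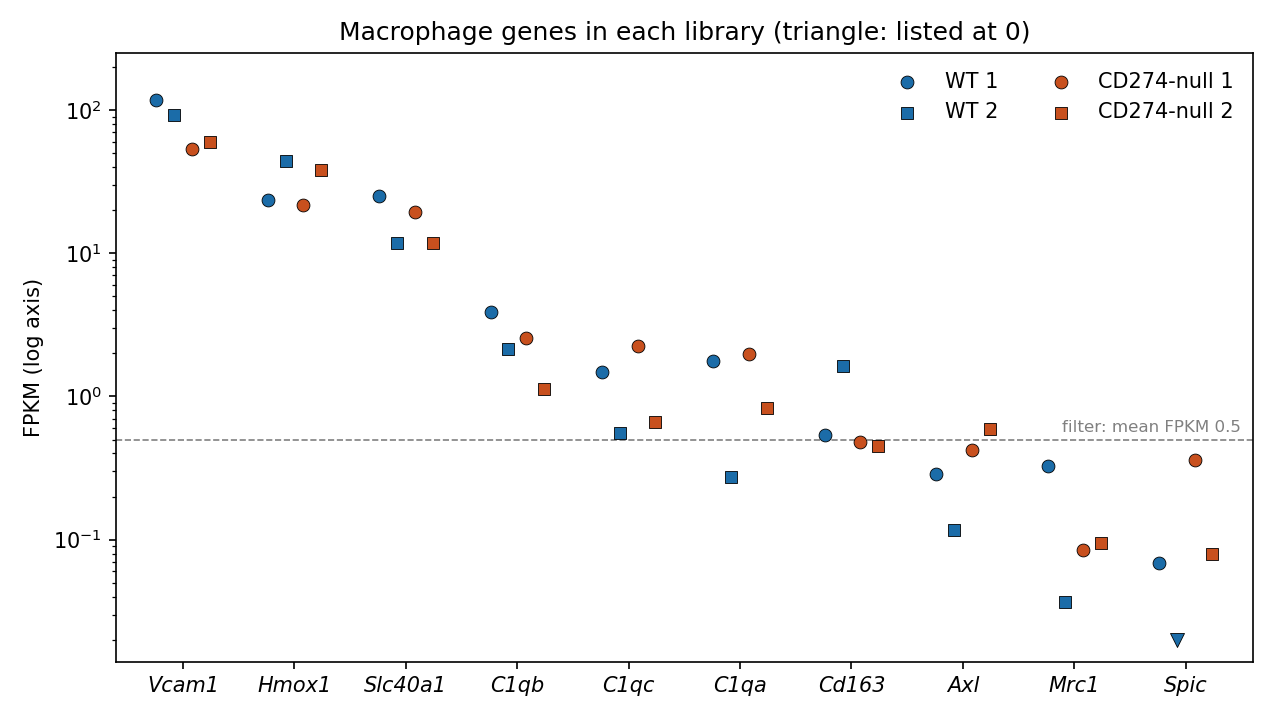
FPKM of the 10 macrophage genes (log axis) in each of the 4 libraries, WT in blue and CD274-null in orange, with circles for replicate 1, squares for replicate 2 and a triangle for the 1 value listed at 0. Vcam1, Hmox1 and Slc40a1 lie above 10 in every library, and the dashed line marks the mean FPKM of 0.5 above which a gene was tested.

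The 3 C1q genes lie next to each other on chromosome 4 of GRCm38 within 18719 bases, in the order C1qb (NCBI gene 12260, chr4:136880126-136886200), C1qc (12262, chr4:136889801-136892936) and C1qa (12259, chr4:136895916-136898844). The stretches before the start sites of C1qb (chr4:136886201-136886450, minus strand) and C1qc (chr4:136892937-136893164, minus strand) are shown because these genes varied together between libraries, as described below. The sequences are from RefSeq (GRCm38.p6), and capitals mark GAGGAA on either strand, the core of sites bound by PU.1 and SPIC.
C1qb: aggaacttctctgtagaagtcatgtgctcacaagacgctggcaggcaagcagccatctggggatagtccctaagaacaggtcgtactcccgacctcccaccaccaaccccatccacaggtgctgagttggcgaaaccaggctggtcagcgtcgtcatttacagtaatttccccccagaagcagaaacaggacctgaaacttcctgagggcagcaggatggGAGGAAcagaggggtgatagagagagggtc
C1qc: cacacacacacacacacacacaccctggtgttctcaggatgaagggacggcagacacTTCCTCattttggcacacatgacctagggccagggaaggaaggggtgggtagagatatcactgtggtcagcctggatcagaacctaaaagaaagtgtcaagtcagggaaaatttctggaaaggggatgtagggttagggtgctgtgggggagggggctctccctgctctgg
Each stretch holds GAGGAA 1 time, at positions -30 to -25 in C1qb and -193 to -188 in C1qc. Positions are counted from the RefSeq start sites chr4:136886200 for C1qb and chr4:136892914 for C1qc. The latter lies inside the gene, so the C1qc stretch ends some bases before it. RefSeq windows of 300 bases (250 before the start site and 50 after) were at hand for 6 members, C1qb, C1qc, Mrc1, Cd163, Axl and Spic. GAGGAA occurred in 4 of these 6 windows, 3 times in that of Mrc1, and in 28.3% of 32851 windows of all genes. The antioxidant response element TGANNNNGC, read by NRF2 and BACH1, occurred in 2 of 6 and in 41.3% of all, and TGCTGA, part of the site of MAF factors, in 2 of 6 and in 19.5% of all. The E box CANNTG occurred in 5 of 6 and in 72.3% of all. In C1qb the TGCTGA match overlapped a TGANNNNGC match and an E box. With 6 windows these counts describe the letters present and no binding.

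C1qa, the A chain of the complement recognition molecule, had an FPKM of 1.76 and 0.272 in WT against 1.99 and 0.835 in CD274-null. C1qb, the B chain, had 3.91 and 2.13 in WT against 2.56 and 1.13 in CD274-null. C1qc, the C chain, had 1.48 and 0.559 in WT against 2.25 and 0.667 in CD274-null. In all 3 genes replicate 1 was above replicate 2 under either label, and the groups overlapped. The replicate number is no known pairing: across genes, deviations of same-numbered libraries correlated at -0.0151. The values rest on few reads, 22, 3, 19 and 9 for C1qa, 48, 23, 24 and 12 for C1qb and 18, 6, 21 and 7 for C1qc in the order WT replicates 1 and 2 and CD274-null replicates 1 and 2. Summed over the 3 genes and scaled to the depth of WT replicate 1, the reads were 88.0 (95% exact Poisson interval 70.6 to 108) and 36.4 (24.9 to 51.3) in WT and 83.8 (64.5 to 107) and 32.5 (21.6 to 47.0) in CD274-null. The intervals, which cover counting error only, separate the 2 libraries within each label, and between labels they overlap for libraries of the same replicate number and not otherwise.

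**Figure D2:**
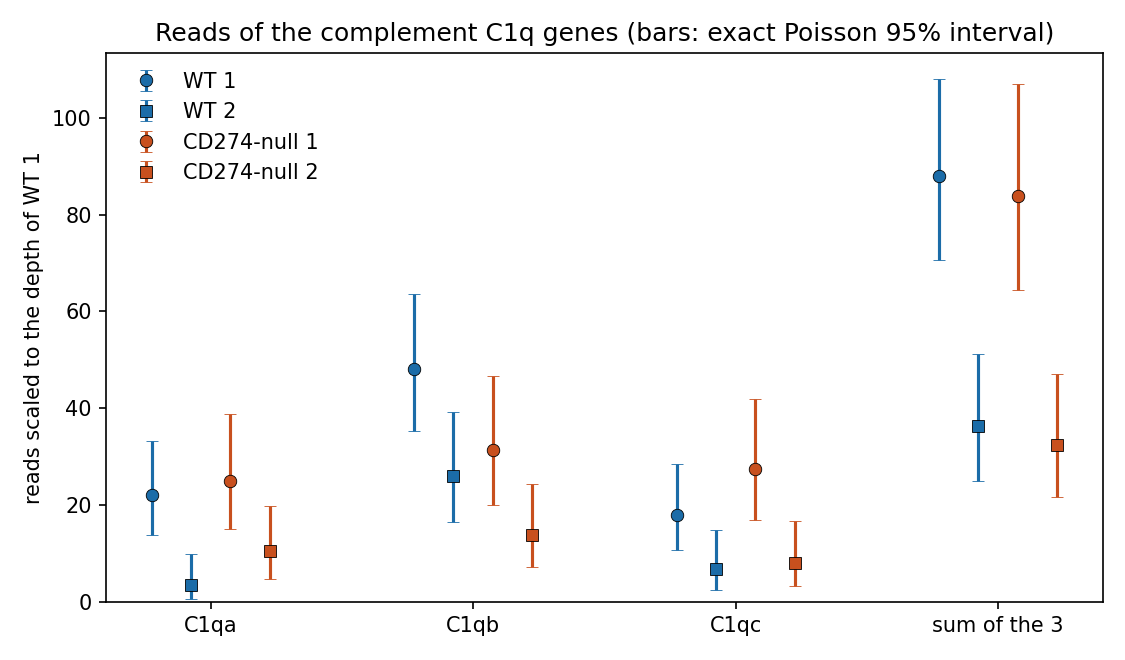
Reads of C1qa, C1qb, C1qc and their sum, scaled to the depth of WT replicate 1, in the 4 libraries, with bars for the 95% exact Poisson interval. The sums of WT replicate 1 and CD274-null replicate 1, 88.0 and 83.8, lie above those of both replicates 2, 36.4 and 32.5.

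None of the C1q genes passed the test between genotypes. On the log2(FPKM + 0.5) scale, which understates the change of low genes, the fold change in CD274-null against WT was 0.46 for C1qa (standard error 0.63, adjusted p = 0.777), -0.61 for C1qb (0.47, adjusted p = 0.589) and 0.31 for C1qc (0.58, adjusted p = 0.845) by limma. For C1qa and C1qc the sign turned when 1 library was left out, with ranges of -0.31 to 1.24 and -0.31 to 0.93. C1qb stayed negative, from -1.06 without CD274-null replicate 1 to -0.16 without CD274-null replicate 2. On this scale the libraries of 1 label lay farther apart than the means of the labels.

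Among the scavenger receptors, Cd163 (NCBI gene 93671, chr6:124304636-124330529), which takes up hemoglobin bound to haptoglobin, had an FPKM of 0.539 and 1.64 in WT against 0.478 and 0.447 in CD274-null. WT replicate 2 stood apart with 75 reads, against 28 in WT replicate 1 and 19 and 20 in CD274-null. The groups did not overlap, with means of 1.09 ± 0.779 in WT against 0.463 ± 0.022 in CD274-null (SD, n = 2 each). Its log2 difference of -0.63 ± 0.50 (± standard error, limma adjusted p = 0.598) moved to -0.11 without WT replicate 2, so the size of the difference rested on that library. WT replicate 2 also held most of the globin RNA, with an FPKM of 18.1 for Hba-a1 and 26.9 for Hbb-bs against at most 0.928 and 3.01 in the other libraries. The summed FPKM of 9 erythroid genes was 2.92 and 55.7 in WT against 4.90 and 0.589 in CD274-null. Most of it was globin except in CD274-null replicate 2, where Hba-a1, Hba-a2 and Hbb-bs were at 0. Hba-a2, at 9.42 against at most 0.402, and Alas2, at 0.794 against at most 0.286, were also highest in WT replicate 2, whereas Slc4a1, the anion exchanger of red cells, was at 0 in all 4 libraries, and the part of erythroid RNA in the Cd163 result was not tested.

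Mrc1 (NCBI gene 17533, chr2:14229414-14332023), the mannose receptor CD206, had an FPKM of 0.325 and 0.0369 in WT against 0.0851 and 0.0944 in CD274-null. These are 20 and 2 reads in WT against 4 and 5 in CD274-null, so that WT replicate 1 was the highest and WT replicate 2 the lowest. Axl (26362, chr7:25756500-25788924), a receptor tyrosine kinase that binds dying cells through GAS6, had 0.289 and 0.116 in WT against 0.423 and 0.593 in CD274-null. Both CD274-null libraries were above both WT libraries, with 19 and 30 reads against 17 and 6, and the means were 0.202 ± 0.122 in WT against 0.508 ± 0.120 in CD274-null (SD, n = 2 each). Spic (20728, chr10:88675269-88683023) had 0.0683 and 0 in WT against 0.357 and 0.0793 in CD274-null, which is 1 and 0 reads against 4 and 1. The 0 reads in WT replicate 2 allow an FPKM of up to 0.233, the worth of 3 reads there. With 0 to 4 reads per library, no difference in Spic was detectable at this depth. Mrc1, Axl and Spic did not reach the mean FPKM of 0.5 and were not tested. In 2 of these 3, Axl and Spic, both CD274-null libraries were the higher. The share was 25.6% of all tested genes, which all reach that mean and so are an unlike set.

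Hmox1 (NCBI gene 15368, chr8:75093618-75100593), the inducible enzyme that breaks heme down to biliverdin, iron and carbon monoxide, had an FPKM of 23.6 and 44.2 in WT against 21.7 and 38.3 in CD274-null. Replicate 2 was the higher under either label, and the groups overlapped. In each library Hmox1 ranked above 73.1% to 86.5% of the genes that were above 0. Slc40a1 (53945, chr1:45908070-45926532), the only known iron exporter of the cell, had 25.2 and 11.7 in WT against 19.3 and 11.8 in CD274-null. Here replicate 1 was the higher under either label, the order of the C1q genes and the opposite of Hmox1.

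Neither gene of heme and iron export passed the test. The means were 33.9 ± 14.6 and 30.0 ± 11.7 for Hmox1 and 18.4 ± 9.51 and 15.6 ± 5.29 for Slc40a1 in WT and CD274-null (SD, n = 2 each). The log2 fold changes were -0.16 (standard error 0.39, adjusted p = 0.888) and -0.18 (0.42, adjusted p = 0.881) by limma. With 1 library left out they ranged from -0.61 to 0.29 and from -0.72 to 0.36. Both genes rest on at least 303 reads per library, and within each label the exact 95% Poisson intervals of the libraries did not overlap.

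Vcam1 (NCBI gene 22329, chr3:116110020-116129688), the ligand of the integrin VLA-4 that holds hematopoietic cells in the marrow, had an FPKM of 117 and 92.3 in WT against 53.7 and 59.8 in CD274-null. Both CD274-null libraries lay below both WT libraries. The mean was 105 ± 17.5 in WT against 56.8 ± 4.34 in CD274-null (SD, n = 2 each), 54.2% of the WT mean. Vcam1 ranked above 94.5% and 95.9% of the genes above 0 in WT against 89.2% and 90.9% in CD274-null, and its reads numbered from 1614 to 4600.

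By limma, Vcam1 differed by -0.87 ± 0.22 on the log2 scale (± standard error, unadjusted p = 0.00704, adjusted p = 0.272), so it met the study's candidate thresholds, an unadjusted p under 0.01 with a fold change above 1.5, and did not pass after adjustment over all genes. The log2 fold change was -1.04 to -0.69 over 4 fits that left out a library and 12 other alternatives. In the 4 fits its sign could not turn, as the groups did not overlap. Changing the filter, eBayes without trend, no moderation and the replicate block left the value at -0.87 by design. The call was lost in limma fits without WT replicate 1 (-0.70, unadjusted p = 0.0239, adjusted p = 0.319), without CD274-null replicate 1 (-0.79, unadjusted p = 0.061, adjusted p = 0.563) or without CD274-null replicate 2 (-0.95, unadjusted p = 0.038, adjusted p = 0.954). It was also lost after a correction for GC content (-0.69, unadjusted p = 0.0322, adjusted p = 0.355), with eBayes without trend (unadjusted p = 0.019, adjusted p = 0.317) and without moderation (unadjusted p = 0.0433, adjusted p = 0.504).

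Stromal and endothelial cells of the marrow, which a Mac-1+/c-Kit+ gate would leave out, make VCAM1 as well. The 8 genes listed for them summed to an FPKM of 14.5 and 33.7 in WT against 28.8 and 60.7 in CD274-null. Pecam1, which myeloid cells also express, had 11.8 and 18.3 in WT against 18.7 and 49.1 in CD274-null, and Pdgfrb had 1.23 and 14.2 against 3.82 and 8.83. The collagen gene Col1a1 had 0.973 and 0.793 in WT against 3.65 and 1.88 in CD274-null. Col1a2 had 0.420 and 0.210 against 1.78 and 0.547, and Cxcl12 was at most 0.695. Cdh5 and Kdr were at 0 in both WT libraries and at most 0.0284 and 0.0207 in CD274-null, and Lepr was at most 0.0341 in any library. The part of stromal and endothelial RNA in the Vcam1 result was not tested. In bulk RNA, fewer cells that hold a transcript and less of it per cell cannot be told apart.

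Across the members, 1 of the 7 tested genes, Vcam1, met the candidate thresholds, where 3.63% of the 13230 tested genes did, 1.24% as lower in CD274-null and 2.39% as higher. After adjustment 0 of 7 passed by limma, as against 0.0756% of all tested genes and 0 of 7 by voom on the recovered reads, where 0 of 13228 genes passed. At an unadjusted p under 0.05 there was 1 of 7, or 14.3%, where 13.7% of all tested genes were. The groups did not overlap in 2 of 7, Vcam1 and Cd163, both lower in CD274-null. Of all tested genes, 21.8% were lower without overlap and 25.6% were higher. The filter shapes this count: Cd163 passed it through WT (mean 1.09 against 0.463), and Axl and Spic, higher in CD274-null without overlap, fell below it. In number, 5 members had a negative and 2 a positive log2 fold change, with a median of -0.18 against 0.01 over all tested genes. With 7 genes these shares do not set the members apart from the background.

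**Figure D3:**
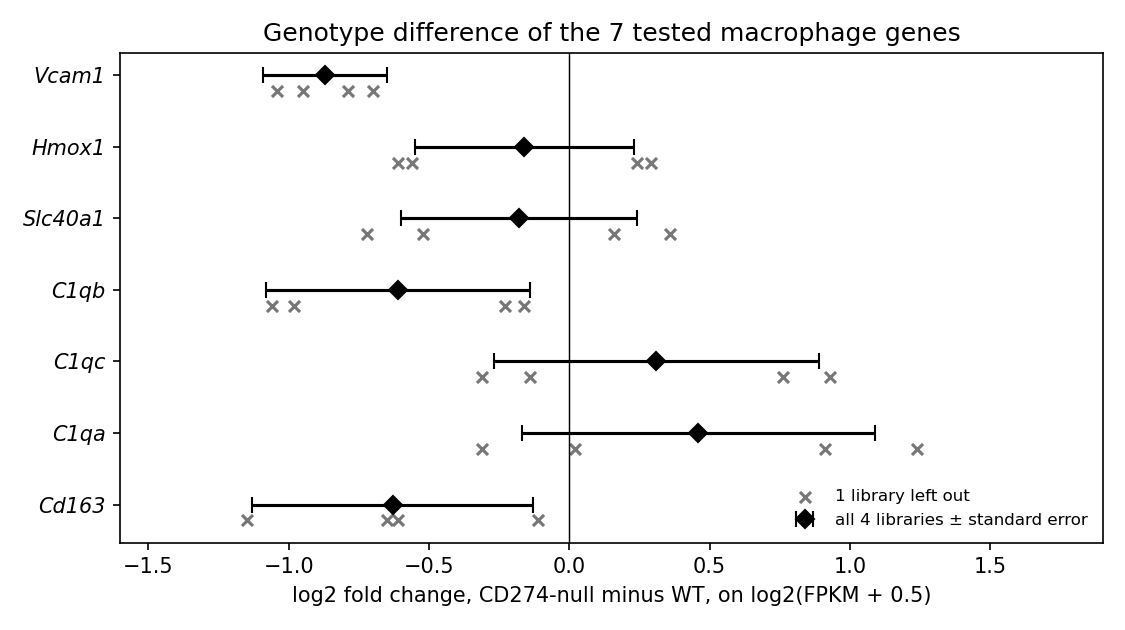
Log2 fold change in CD274-null against WT of the 7 tested macrophage genes on the log2(FPKM + 0.5) scale, with the limma standard error as bars and the values after leaving out 1 library as crosses. Vcam1 stays below 0 in all 4 crosses, from -1.04 to -0.70, as do C1qb and Cd163, whereas C1qa, C1qc, Hmox1 and Slc40a1 have crosses on both sides of 0. The groups of Vcam1 and Cd163 did not overlap, so their crosses could not change side.

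The members did not move as 1 group. Their summed FPKM was 174 and 153 in WT against 103 and 114 in CD274-null, a difference of -55.2 between the means that came largely from Vcam1. The sum of the 7 low members was 8.36 and 4.75 in WT against 8.14 and 3.85 in CD274-null, with the higher value in replicate 1 under either label. Of the 7 tested members, 3 were highest in WT replicate 1, and 2 each in WT replicate 2 and CD274-null replicate 1. CD274-null replicate 2 was highest for 0 of the 7. Over all tested genes the shares were 23.9% and 29.2% in WT against 25.9% and 21.0% in CD274-null. Centred on its own mean, a member lay between 0.265 (Slc40a1) and 0.621 (Hmox1) log2 units, root mean square over the 4 libraries, from the members' mean profile. The non-members nearest to that profile were Prmt1 (0.016), Clns1a (0.016), 1600014C10Rik (0.017), Cmtr2 (0.018) and Serbp1 (0.020). As 4172 non-members were nearer to it than Slc40a1, this likeness is to a mean over unlike members.

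Other macrophage genes were read from 4 lists of 74 genes in all. The macrophage surface receptors, 18 genes, were mostly at the level of the low members, with a median FPKM of 0.307. Of these, 10 were under 1 in every library, among them Siglec1, the sialoadhesin of marrow macrophages, at 0.0308 to 0.314. Timd4, a receptor for dying cells, and Clec4f, a Kupffer cell receptor, were at 0 in all 4 libraries. The highest were Cd68, Adgre1 and Csf1r, genes shared with monocytes. Adgre1, which encodes F4/80, had an FPKM of 22.2 and 47.1 in WT against 28.4 and 42.6 in CD274-null, and Csf1r, the receptor for the macrophage growth factor, had 19.7 and 41.7 in WT against 33.2 and 44.9 in CD274-null.

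Cd68, a lysosomal protein of phagocytes, was the 1 gene of the 52 tested in these lists that met the candidate thresholds. Its FPKM was 51.5 and 58.1 in WT against 86.9 and 113 in CD274-null, the opposite direction to Vcam1, a limma log2 difference of 0.85 ± 0.23 (± standard error, unadjusted p = 0.00861, adjusted p = 0.274). The call was lost when any 1 of the 4 libraries was left out, with values of 0.66 to 1.04, and after a correction for GC content, with 0.75. It was also lost with quantile normalization and equal medians (0.83 each), with eBayes without trend and without moderation (0.85 each). Other receptors met the thresholds only in single fits, Msr1 as lower without WT replicate 1 (-2.12, unadjusted p = 0.00629, limma), Cx3cr1 as higher without WT replicate 2 (2.77, unadjusted p = 0.00131, limma) and Fcgr1 as higher without a filter (0.97, unadjusted p = 0.00749, limma). After adjustment 0 of the 52 passed by limma, and 5 had an unadjusted p under 0.05, 3 higher and 2 lower in CD274-null, where 13.7% of all tested genes had one. Their median log2 fold change was 0.06.

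The macrophage transcription factors, 12 genes, were led by Spi1, with an FPKM of 356 and 332 in WT against 271 and 260 in CD274-null. Spic, the relative of Spi1, was at most 0.357 in any library. Tfec, a factor of monocytes and macrophages, was lowest in WT replicate 1 at 38.8 and highest in WT replicate 2, with 88.5 and 65.8 in CD274-null. Irf8, a factor of monocytes and dendritic cells, had 8.10 and 30.4 in WT against 41.6 and 81.4 in CD274-null. Both CD274-null libraries were the higher, and the log2 fold change of 1.85 did not meet the thresholds (unadjusted p = 0.0239, adjusted p = 0.313, limma). Irf8 did meet the candidate thresholds without WT replicate 2 (2.77, unadjusted p = 0.00127, limma) and with the replicate number as a block (unadjusted p = 0.000333, limma). Gata6, the factor of peritoneal macrophages, was at 0 in all 4 libraries.

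In the list for complement and the clearance of dying cells, 20 genes, 0 of 13 tested met the thresholds. C4b, complement component 4, with 27.5 and 5.43 in WT against 6.75 and 1.95 in CD274-null, did so without WT replicate 2 (-2.73, unadjusted p = 0.0094, limma) and with the replicate number as a block (-1.61, unadjusted p = 0.00222, limma). Without WT replicate 1, C5ar1, a receptor for a complement fragment, met them as higher (1.70, unadjusted p = 0.00706, limma) and Mfge8, a bridge to dying cells, as lower (-1.65, unadjusted p = 0.00719, limma). The highest were Calr, the chaperone that also serves as a receptor for C1q, with 537 and 939 in WT against 875 and 1110 in CD274-null, C3, the central complement component, with 295 and 121 against 169 and 286, and Cfp, which encodes properdin, with 88.7 and 204 against 135 and 150. All 3 stood above every C1q gene in each library. Mertk, a receptor for dying cells of the same family as Axl, had 0.535 and 0.829 in WT against 0.318 and 0.0283 in CD274-null, and this order differed from that of Axl.

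In the list for heme and iron handling, 24 genes, 0 of 21 tested met the thresholds and 13 were above 10 in every library. Without WT replicate 2, Fbxl5 and Gclm met them (-1.89 and -1.68, unadjusted p = 0.00138 and 0.00363, limma), and Fbxl5 did with the replicate number as a block (-1.08, unadjusted p = 0.00994, limma). Hamp met them without a filter (1.06, unadjusted p = 0.000675, limma). Its FPKM was 0 in both WT libraries and 0.573 and 0.508 in CD274-null, recovered as 1 read each, so this call rests on hardly any reads. The ferritin chains led, Ftl1 with 426 and 635 in WT against 433 and 656 in CD274-null and Fth1 with 547 and 461 against 369 and 520, followed by the heme transporter Slc48a1 with 70.0 and 96.7 against 73.5 and 66.9. Ftl1 was, like Hmox1, higher in replicate 2 under either label. Nfe2l2, the gene of the Hmox1 activator NRF2, had 23.4 and 16.4 in WT against 31.2 and 60.6 in CD274-null, and Bach1, the gene of its repressor, had 18.0 and 23.5 against 16.0 and 10.5. In Nfe2l2 and Bach1 the groups did not overlap, and neither passed (log2 fold changes 1.13 and -0.65, adjusted p = 0.306 and 0.399, limma). Hmox1 itself followed neither order.

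**Figure D4:**
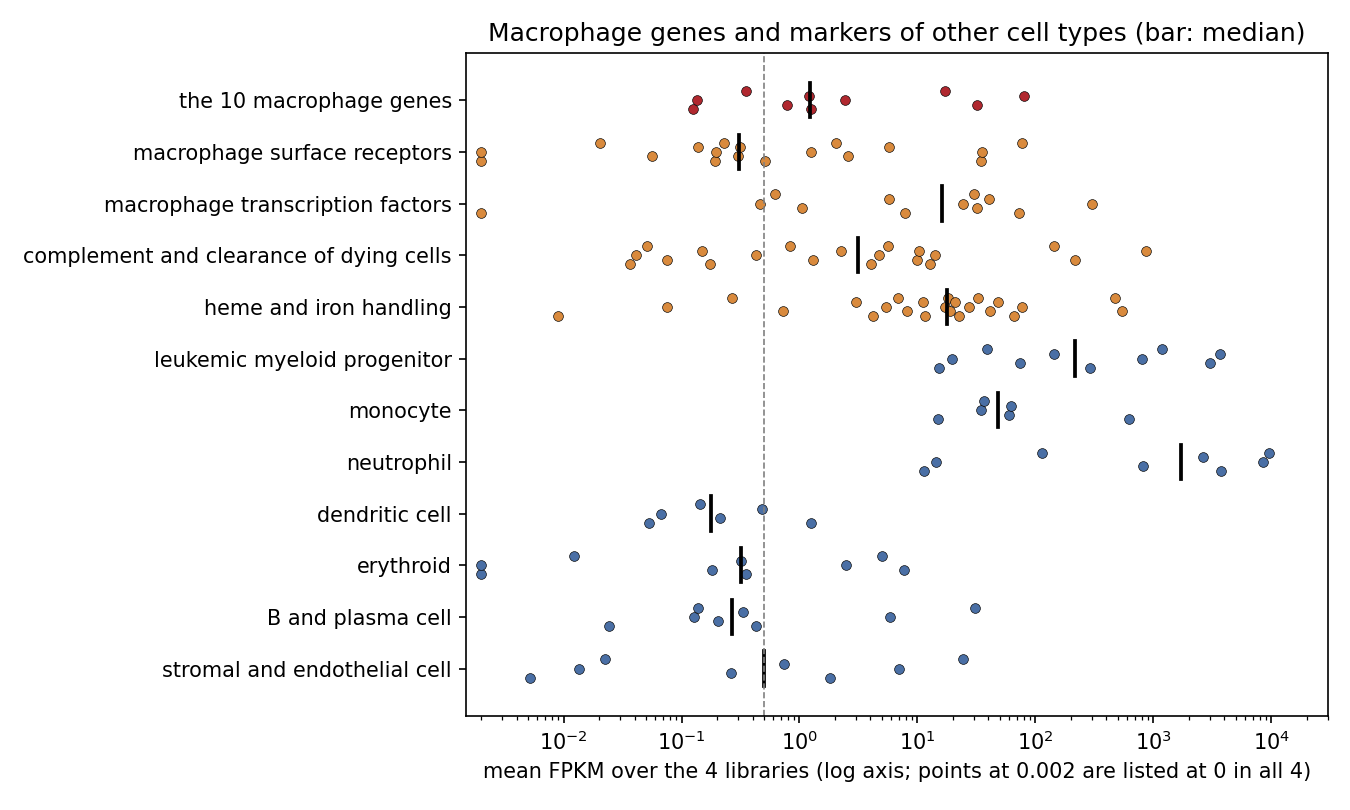
Mean FPKM over the 4 libraries (log axis) of each gene of the 10 macrophage genes in red, of 4 lists of other macrophage genes in orange and of markers of other cell types in blue, with a bar for the median of each list and a dashed line at the mean FPKM of 0.5 above which a gene was tested. The medians are 1.23 for the 10 members, 0.307 for macrophage surface receptors, 217 for leukemic myeloid progenitor markers and 1720 for neutrophil markers.

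Markers of other cells give the background of the sort. Neutrophil genes had a median FPKM of 1720 and summed to 43400 and 8750 in WT against 18300 and 31400 in CD274-null, led by S100a9 and S100a8. Monocyte genes summed to 586 and 965 in WT against 905 and 860 in CD274-null, led by Ly6c2 and F13a1. Of these, Cd14 met the thresholds as lower in CD274-null, at 57.4 and 39.6 against 23.2 and 26.0, and of the progenitor genes Mpo met them as higher, with means of 423 ± 29.5 in WT against 1180 ± 355 in CD274-null (SD, n = 2 each). Dendritic cell genes, led by Itgax and Cd209a, summed to 0.551 and 1.36 in WT against 2.92 and 3.93 in CD274-null. B and plasma cell genes, led by Cd79b, summed to 13.3 and 37.3 in WT against 49.9 and 50.2 in CD274-null, with Jchain passing as higher after adjustment (adjusted p = 0.0369, limma). No gene, Jchain included, passed after adjustment with voom, without moderation, with the GC correction or without either CD274-null library. The part of these cells in the values of the 10 members was not tested.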

How the data were processed

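RNA of sorted LICs was measured by RNA-sequencing (TruSeq v2 libraries) in 4 libraries, 2 per genotype label. The authors deposited FPKM values on a linear scale in a single table whose columns were matched to the libraries by title, and 0 sample columns were left unassigned. The submitters' processing notes name CASAVA 1.8.2, TopHat2 2.0.12 and GRCm38, and the program, gene lengths and strand setting behind FPKM are not given in the sources used here. RefSeq (GRCm38.p6) gave a symbol to 25275 of the 27179 NCBI gene numbers.

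FPKM values of a gene stood in ratios of whole numbers, and whole reads were recovered for 17081 of 17083 genes above 0 in at least 2 libraries, within 0.002 of a whole number (2e-07 of the value where that is more), up to a factor common to all libraries, so that reads are lower bounds. The relative depth of the libraries was 1.00, 0.880, 0.764 and 0.861 in the order WT replicates 1 and 2 and CD274-null replicates 1 and 2. Reads carry no molecular identifiers, so intervals (scipy 1.17.1, Python 3.11.15) cover counting error only.

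The 13230 genes whose mean FPKM reached 0.5 were compared between genotypes on log2(FPKM + 0.5) by limma 3.58.1 under R 4.3.3, using lmFit and trended eBayes, 2-sided and without covariates, with Benjamini-Hochberg adjustment over all tested genes. The fit was tested on simulated data. The thresholds are those of the study, whose methods do not tie a test or program to the RNA-sequencing step. The members and the gene lists were chosen with earlier results of these data known. Named are all members, the 3 highest genes of each list of other macrophage genes and the 2 highest of each list of other cell types by mean FPKM, genes that met a threshold, the 5 non-members nearest to the members' mean profile, and Cd274. Further genes (Siglec1, Timd4, Clec4f, Gata6, Mertk, Nfe2l2, Bach1, C4b, C5ar1, Mfge8, Msr1, Cx3cr1, Fcgr1, Hamp, Alas2, Hba-a2, Fbxl5, Gclm, Pecam1, Pdgfrb, Col1a1, Col1a2, Cxcl12, Cdh5, Kdr, Lepr, Slc4a1, Itgam, Kit) were named from the lists after their values were seen. Exon lengths and GC content were from GENCODE M21.

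Alternatives were other pseudocounts (1 and 0.1), testing without a filter or from a mean FPKM of 5, quantile normalization, equal medians, eBayes without trend, no moderation, the replicate number as a block, voom on recovered reads and leaving out each library. A correction for GC content (loess, span 0.3), also with the block, was chosen after seeing the data.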

Additional observations from a re-analysis of the deposited data

How the results depend on the processing

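The count of all tested genes that met the candidate thresholds, 480, was 170 without moderation, 314 with the GC correction, 275 with the GC correction and replicate block, and 147 to 634 with 1 library left out, lowest without CD274-null replicate 2 and 235 without CD274-null replicate 1. The count of members, 1, became 0 with eBayes without trend, without moderation, with the GC correction and with the GC correction and replicate block, and was 0 to 1 with 1 library left out. The count in the 4 lists of other macrophage genes, 1, became 3 without a filter, 0 with quantile normalization, equal medians, eBayes without trend, no moderation or the GC correction, 4 with the replicate block (Cd68, C4b, Fbxl5 and Irf8), 2 with the GC correction and block (C4b and Irf8), and 0 to 5 with 1 library left out (5 without WT replicate 2, 3 without WT replicate 1). Genes with an adjusted p under 0.05, 10, ranged from 0 to 21. The sign turned only with 1 library left out, for C1qa (-0.31 to 1.24), C1qc (-0.31 to 0.93), Hmox1 (-0.61 to 0.29) and Slc40a1 (-0.72 to 0.36). The causes were not tested.

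The libraries share only a replicate number: deviations of same-numbered libraries correlated at -0.0151 across genes, and with the replicate block 526 genes met the thresholds, Vcam1 among them (log2 fold change -0.87, p = 0.00923, adjusted p = 0.249, limma). Equal medians removed a shift of 0.0237 on the log2 scale and moved the difference of the members' summed FPKM from -55.2 to -57.4, and leaving out a library gave -65.8 to -44.6. With a lone library on 1 side, the fit assumes that it varies like the others. Read depth limits Spic, Mrc1 and Axl, which rest on 0 to 30 reads per library.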

Other observations

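Of the 52 tested genes of the 4 lists, 18 (34.6%) had, like Cd163, their highest FPKM in WT replicate 2, where 29.2% of all tested genes did. The genes below, highest there, were picked as examples after the values were seen, and Marco was not tested. Msr1, a scavenger receptor, had 1.10 and 3.14 in WT against 0.509 and 0.201 in CD274-null (unadjusted p = 0.0283, adjusted p = 0.329, limma), and Marco, another, had 0.0435 and 1.04 against 0.114 and 0. Trem2, a lipid-sensing receptor of macrophages, had 0.794 and 4.96 in WT against 2.08 and 0.277 in CD274-null. Mfge8, a bridge to dying cells, had 0.854 and 9.79 in WT against 3.14 and 2.46 in CD274-null. Pparg, a nuclear receptor of lipid metabolism, had 0.697 and 2.23 in WT against 0.342 and 0.962 in CD274-null.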
